A study of Mus musculus with 2 samples.

Results

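Skeletal muscle fibres contract with sets of proteins that differ between fast and slow fibres, and the transcripts of 45 genes of these sets and of muscle metabolism were followed here in brown adipose tissue taken from between the shoulder blades (interscapular), a fat that burns fuel for heat. The 45 genes were given as a list by name, chosen with earlier results of these data known. All were found in the gene annotation. They stand among 15622 genes with at least 1 read. The tissue came from male wild type C57BL/6N mice of 20 weeks. The cold library was made from pooled poly(A)+ RNA of 3 mice housed singly at 4 °C for 24 h. The control library is labelled only as control, its pool size is not given in the sources used here, and mice were otherwise kept at 22 to 24 °C. The treatment protocol attached to the control describes the same cold exposure, which its treatment label contradicts. The extraction protocol names another fat depot than the tissue label does.

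Native RNA was read on a nanopore from the 3' end, 1 molecule per read and without amplification, so reads were summed to genes and not divided by length. The cold library held 1215617 reads and the control library 1698124. With 1 library per condition there was no spread between replicates and no test between conditions. Ratios are cold over control, after scaling each library by trimmed-mean (TMM) factors. Values in parentheses are 95% intervals that cover counting error only, and they compare 2 libraries, not conditions. The labelled tissue was checked against its markers. All 12 genes listed as brown adipocyte markers were detected, with 45737 reads in the cold library and 47833 in the control library. Fabp4, Adipoq, Plin1 and Lipe among them are not limited to brown fat. Fabp4 alone had 20787 reads in the cold library and 20610 in the control library. Ucp1, the uncoupling protein of brown fat, had 14526 reads in the cold library and 14860 in the control library. Its ratio was 1.21 (1.18 to 1.23). Of the 12 listed markers, 2 were at least 2-fold higher in the cold library. Dio2, the deiodinase that activates thyroid hormone, was at 5.94 (4.47 to 7.997). Elovl3, a fatty acid elongase, was at 5.01 (4.25 to 5.93). The other 10 lay between 0.656, the value of Adipoq, and 1.31, and their part in the muscle values was not tested.

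In a sarcomere, myosin heavy chains with their light chains pull on actin filaments, and calcium released from the sarcoplasmic reticulum frees the actin through troponin. Fast fibres use fast forms of myosin, troponin and the calcium pump and draw much of their energy from glycogen, whereas slow fibres use slow forms and more oxygen. Interscapular brown fat lies against muscles of the back, and brown adipocytes and skeletal muscle share early progenitors.

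Together the 45 genes had 3497 reads in the cold library and 1092 in the control library. That was 0.288% of reads (0.278 to 0.297) in the cold library and 0.0643% (0.0605 to 0.0682) in the control library. The ratio of the scaled sums was 3.95 (3.69 to 4.23), and it was 3.84 (3.57 to 4.13) without Acta1, the gene with the most reads. All 45 genes were detected in both libraries, and 43 had at least 20 reads over both, the minimum set for a call. Of these 43, 40 were at least 2-fold higher in the cold library with an interval above 1, and none was lower. Over all 7529 genes with at least 20 reads, 4.20% were higher by the same rule and 4.08% were lower. The interval lay above 1, whatever the fold, for 42 of the 43, against 11.3% of all genes. The median log2 ratio of the 43 genes was 2.22, beside -0.0025 for all 7529. Among the 100 genes with the highest ratios, 31 were on the list. Because the list was chosen with earlier results of these data known, these contrasts with all genes are a description and not a test. In bulk tissue the cells that made these reads were not identified. More such cells and more of this RNA per cell cannot be told apart.

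**Figure D1:**
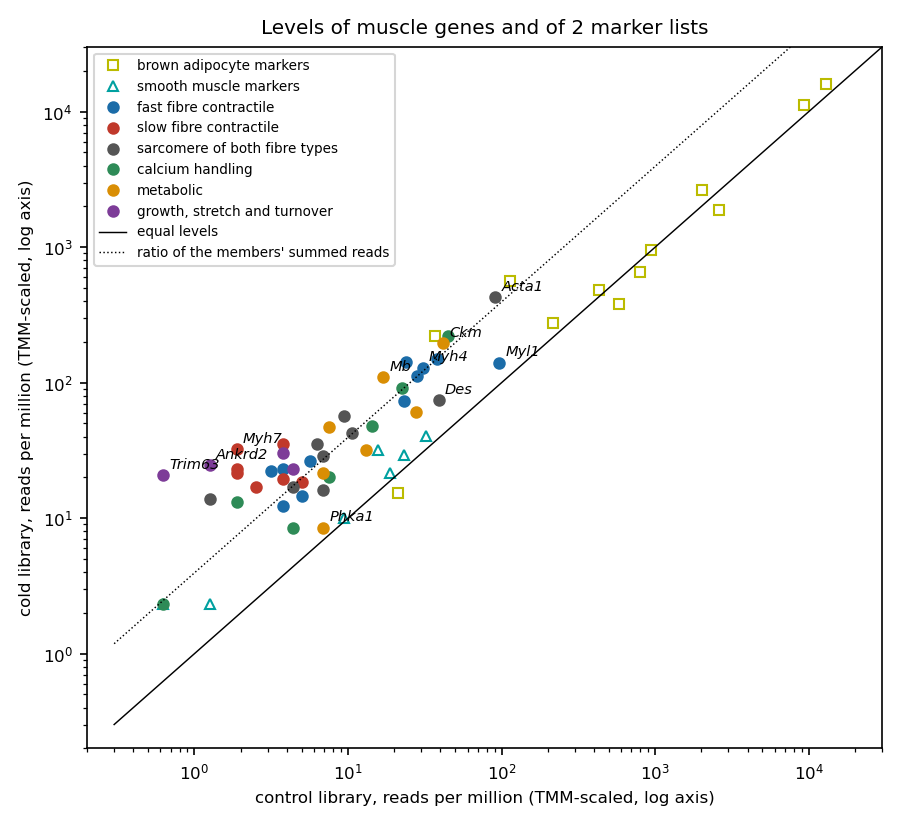
TMM-scaled reads, relative to the size of each library, in the cold library (vertical log axis) against the control library (horizontal log axis), for the 45 muscle genes by role and for brown adipocyte and smooth muscle markers with reads in both libraries. Most muscle genes lie near the dotted line at the ratio of their summed reads, 3.95. Myl1, Des, Phka1 and Casq1 lie closer to the solid line of equal levels.

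Promoters of 5 genes are shown because they stand for 5 of the 6 roles described here, all but calcium handling, and all but 1 hold several motifs known from muscle promoters. RefSeq's promoter table (GRCm38.p6) held 37 of the 45 genes. It held none for Tnni2, Tnnt3, Actn3, Myoz1, Neb, Tcap, Sln and Srl. The 250 bases before each annotated start are printed 5' to 3' on the gene's strand. Capitals mark matches to the E-box CAGCTG bound by MyoD-type factors, the MCAT element CATTCC bound by TEAD factors, the MEF2 site, the CArG box bound by serum response factor, and the TATA box, TATAAA. The last was searched on the gene's strand and the other motifs on both strands, and a MEF2 site can contain it.
Myh4, chr11:67237562-67237811 (plus strand): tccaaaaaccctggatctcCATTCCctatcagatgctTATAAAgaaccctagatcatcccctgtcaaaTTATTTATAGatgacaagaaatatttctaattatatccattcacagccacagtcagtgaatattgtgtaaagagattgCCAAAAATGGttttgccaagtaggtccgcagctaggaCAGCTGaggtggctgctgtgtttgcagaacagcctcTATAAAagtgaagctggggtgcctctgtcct
Myl3, chr9:110763428-110763677 (plus strand): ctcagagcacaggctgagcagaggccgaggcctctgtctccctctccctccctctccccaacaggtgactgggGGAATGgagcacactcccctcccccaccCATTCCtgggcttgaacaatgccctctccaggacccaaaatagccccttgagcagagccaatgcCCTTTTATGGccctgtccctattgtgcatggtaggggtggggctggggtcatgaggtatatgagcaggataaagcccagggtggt
Acta1, chr8:123894776-123895025 (minus strand): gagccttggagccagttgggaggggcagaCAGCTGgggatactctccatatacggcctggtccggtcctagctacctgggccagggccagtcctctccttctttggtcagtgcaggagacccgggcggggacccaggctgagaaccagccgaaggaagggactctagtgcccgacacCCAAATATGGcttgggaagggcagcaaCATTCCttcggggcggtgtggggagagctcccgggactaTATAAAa
Ckm, chr7:19410844-19411093 (plus strand): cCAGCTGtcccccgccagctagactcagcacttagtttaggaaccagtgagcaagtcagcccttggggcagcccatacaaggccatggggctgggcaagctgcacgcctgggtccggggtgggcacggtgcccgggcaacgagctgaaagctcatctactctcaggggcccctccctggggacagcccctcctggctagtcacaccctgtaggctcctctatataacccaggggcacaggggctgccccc
Trim63, chr4:134314870-134315119 (plus strand): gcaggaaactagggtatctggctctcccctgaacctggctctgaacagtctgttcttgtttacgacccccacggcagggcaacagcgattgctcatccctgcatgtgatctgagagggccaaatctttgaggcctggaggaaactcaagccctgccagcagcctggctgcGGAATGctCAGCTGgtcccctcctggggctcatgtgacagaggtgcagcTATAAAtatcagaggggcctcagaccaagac
Myh4 encodes a fast myosin heavy chain, Myl3 a slow light chain, Acta1 skeletal actin, Ckm muscle creatine kinase and Trim63 a ubiquitin ligase. The E-box was found before 17 of the 37 genes (45.9%), against 14.7% of all 27025 genes in the table. It was found before 6 of 7 metabolic genes, and before 3 of 7 genes in each of the fast and the slow contractile groups. The MCAT element was found before 11 genes (29.7%, against 14.4% of all genes), TATAAA before 6 (16.2%, against 8.94%), the MEF2 site before 5 (13.5%, against 3.42%) and the CArG box before 4 (10.8%, against 1.62%). Myh4 was the gene whose window held all 5. A match is a description of the letters and not evidence of binding.

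The 11 fast contractile genes had 1095 reads in the cold library and 418 in the control library, a ratio of sums of 3.23 (2.88 to 3.62). Their median log2 ratio was 1.98, and 10 were at least 2-fold higher in the cold library. All 3 fast troponin subunits were among them. Tnni2, the inhibitory subunit, had 184 reads in the cold library and 38 in the control library, a ratio of 5.97 (4.19 to 8.71). Tnnt3, which ties troponin to tropomyosin, had 195 reads in the cold library and 61 in the control library, a ratio of 3.94 (2.94 to 5.35). Tnnc2, the calcium sensor, had 145 reads in the cold library and 45 in the control library, a ratio of 3.97 (2.83 to 5.68). The intervals of these 3 subunits overlap.

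Fast myosin was represented by heavy chains of the 3 adult fast types. Myh4, the heavy chain of the fastest fibres (chromosome 11, 67238029 to 67260446 on GRCm38), had 167 reads in the cold library and 49 in the control library, a ratio of 4.20 (3.04 to 5.90). Myh1 had 34 reads in the cold library and 9 in the control library, and Myh2, of fast oxidative fibres, had 30 in the cold library and 6 in the control library. Their ratios were 4.66 (2.19 to 11.04) for Myh1 and 6.17 (2.53 to 18.1) for Myh2. These genes lie beside each other and resemble each other. Of the 31-base words in its most abundant transcript, Myh1 shared 39.7% with other genes, Myh2 38.5% and Myh4 30.4%, so the split of their reads is uncertain. Mylpf, the fast regulatory light chain, had 94 reads in the cold library and 37 in the control library, a ratio of 3.13 (2.12 to 4.72).

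Fast structural proteins had fewer reads. Actn3, the alpha-actinin of fast fibre Z-discs, had 29 reads in the cold library and 5 in the control library, a ratio of 7.15 (2.74 to 23.7). Mybpc2, fast myosin binding protein C, had 16 reads in the cold library and 6 in the control library, a ratio of 3.29 (1.22 to 10.3). Myoz1, a Z-disc partner of calcineurin, had 19 reads in the cold library and 8 in the control library, a ratio of 2.93 (1.22 to 7.73). Each of these was higher in the cold library, with wide intervals.

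Myl1, the fast essential light chain (chromosome 1, 66924295 to 66945404), stood apart from the other fast genes. It had 182 reads in the cold library and 154 in the control library, a ratio of 1.46 (1.17 to 1.82). It was the listed gene with the most reads in the control library, ahead of Acta1 with 145. Its reads in the control library outnumbered those of Tnni2, Tnnt3 and Tnnc2 together, whereas in the cold library Tnni2 and Tnnt3 had about as many reads as Myl1. A pseudogene, Mylf-ps, shares 28.4% of its words and had no reads in either library.

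The 7 slow contractile genes had few reads in the control library and larger ratios. They had 217 reads in the cold library and 33 in the control library, a ratio of sums of 8.11 (5.604 to 12.1). The median log2 ratio was 3.13, and all 7 were at least 2-fold higher in the cold library. With 5 reads in place of 0.5 added to each count (the prior of the log2 ratios), the median was 2.23 for the slow genes and 1.87 for the fast genes. Myh7, the slow myosin heavy chain shared with heart (chromosome 14, 54970684 to 54994626), had 42 reads in the cold library and 3 in the control library, a ratio of 17.3 (5.52 to 87.1). Of its words, 32.2% are shared with the heart gene Myh6, which had no reads in either library. Myl2, the slow regulatory light chain, had 46 reads in the cold library and 6 in the control library, a ratio of 9.45 (4.03 to 27.1). Myl3, the slow essential light chain, had 24 reads in the cold library and 8 in the control library, a ratio of 3.70 (1.61 to 9.53), the lowest of this group.

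The slow troponins were each at 3 or 4 reads in the control library. Tnnc1, the slow calcium sensor, had 30 reads in the cold library and 3 in the control library, a ratio of 12.3 (3.83 to 63.1). Tnni1, the slow inhibitory subunit, had 28 reads in the cold library and 3 in the control library, a ratio of 11.5 (3.56 to 59.2). Tnnt1, the slow tropomyosin-binding subunit, had 22 reads in the cold library and 4 in the control library, a ratio of 6.78 (2.30 to 27.1). With so few control reads the upper limits are far from the ratios. Mybpc1, slow myosin binding protein C, had 25 reads in the cold library and 6 in the control library, a ratio of 5.14 (2.06 to 15.3).

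**Figure D2:**
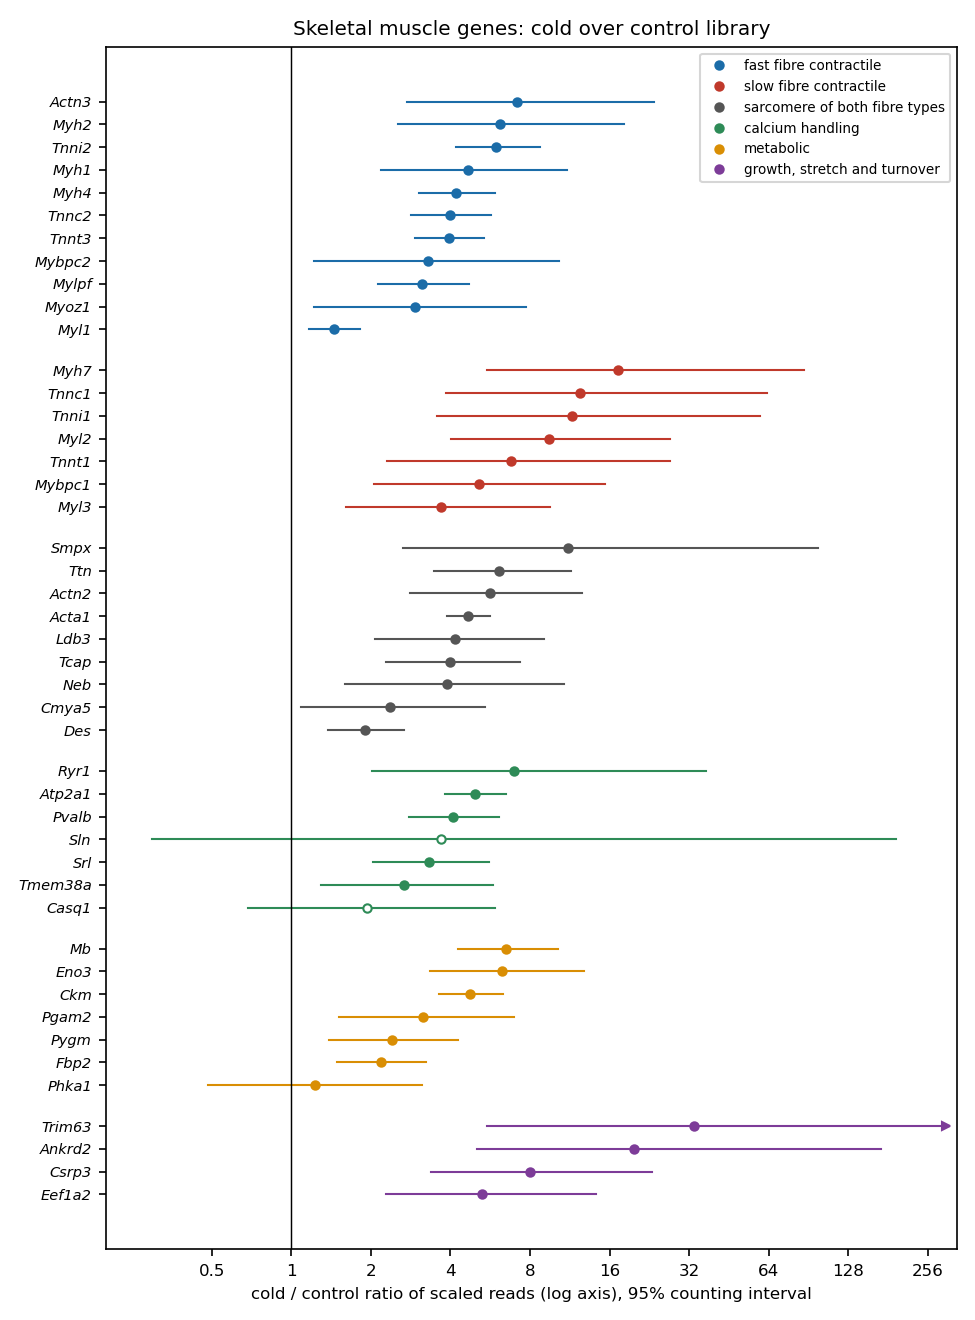
Ratio of scaled reads, cold over control, with its 95% counting interval for each of the 45 genes (log axis), grouped by role and ordered within a group. Open circles mark the genes under 20 reads over both libraries, Sln and Casq1, and the arrow marks the Trim63 interval, which ends at 1363. All ratios lie above 1, and the slow genes reach 17.3 for Myh7 where the fast genes reach 7.15 for Actn3.

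Fast and slow genes were set against each other as the fast share of their reads, which does not depend on the scaling of the libraries. Over all 18 contractile genes the fast share was 83.5% (81.3 to 85.4) in the cold library and 92.7% (89.9 to 94.9) in the control library. The difference, cold minus control, was -9.22 percentage points (-12.2 to -5.85). Put as a ratio, the summed slow genes had a cold over control ratio 2.51 times (1.70 to 3.80) that of the summed fast genes. Without Myl1, a choice made after its values were seen, the shares were 80.8% in the cold library and 88.9% in the control library, with a difference of -8.09 points (-12.0 to -3.46). The difference kept its direction without Myl1, and the ratio of 2.51 became 1.90 (1.28 to 2.90).

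In 10 pairs of related genes the fast share was below control in 8, but with intervals that excluded 0 in only 3 of these. The intervals are not adjusted for the number of pairs. For Mylpf with Myl2, the regulatory light chains, the fast share was 67.1% (58.7 to 74.8) in the cold library and 86.0% (72.1 to 94.7) in the control library, a difference of -18.9 points (-29.9 to -3.76). For the fast heavy chains Myh1, Myh2 and Myh4 with Myh7, it was 84.6% (79.8 to 88.7) in the cold library and 95.5% (87.5 to 99.1) in the control library, a difference of -10.9 points (-16.5 to -2.16). For Myl1 with Myl3, the essential light chains, it was 88.3% (83.2 to 92.4) in the cold library and 95.1% (90.5 to 97.8) in the control library, a difference of -6.71 points (-12.4 to -0.887). These 3 pairs are all of myosin.

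The troponin pairs had differences of the same sign whose intervals included 0. The difference was -10.9 points (-18.4 to 0.756) for Tnnc2 with Tnnc1, -5.89 points (-13.0 to 6.84) for Tnni2 with Tnni1 and -3.98 points (-10.0 to 5.27) for Tnnt3 with Tnnt1. At this depth no difference was detectable for Mybpc2 with Mybpc1 (-10.98 points, -39.0 to 18.0), Actn3 with Actn2 (5.33 points, -21.6 to 26.7) or Casq1 with Casq2 (-21.4 points, -47.6 to 16.6). Actn2 is made in all fibre types. The calcium pumps went the other way, and Atp2a2, the slow fibre pump, is also made by cells that are not muscle. Atp2a1 made up 43.9% (40.1 to 47.8) of the reads of Atp2a1 and Atp2a2 in the cold library and 19.8% (15.8 to 24.3) in the control library, a difference of 24.1 points (18.3 to 29.5).

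**Figure D3:**
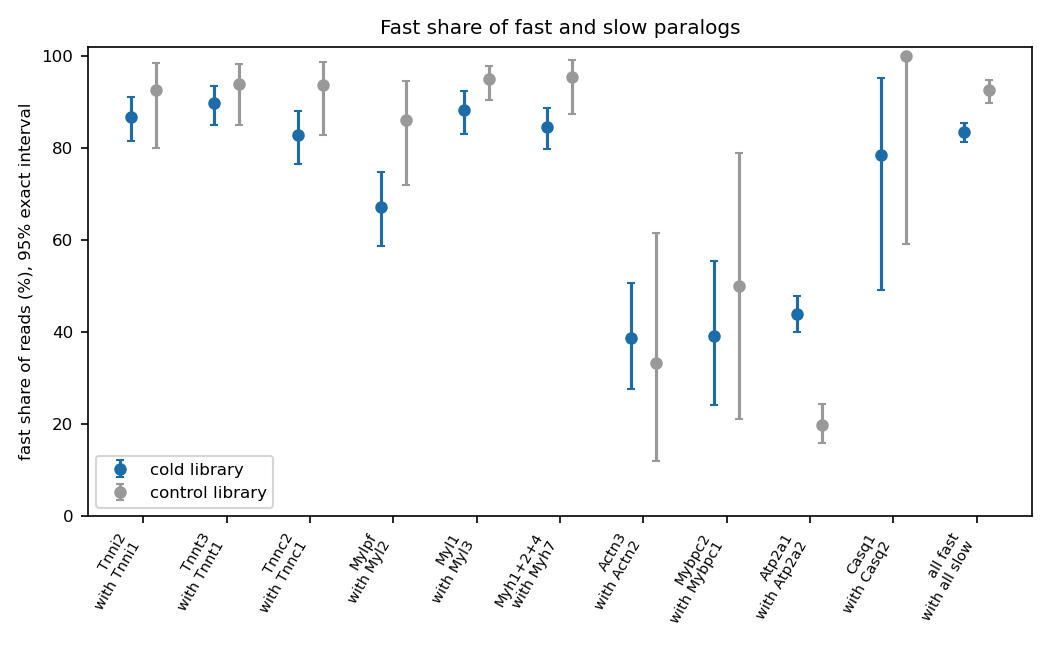
Share of reads from the fast gene in 10 pairs of fast and slow genes, and over all 18 contractile genes, in the cold library (left point of each pair) and the control library (right point), with exact 95% intervals. The share over all genes was 83.5% in the cold library and 92.7% in the control library, and the pair Atp2a1 with Atp2a2 was higher in the cold library.

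The 9 sarcomere genes of both fibre types had 919 reads in the cold library and 280 in the control library, a ratio of sums of 4.05 (3.54 to 4.64), with a median log2 ratio of 2.00. Of these, 8 were at least 2-fold higher in the cold library. Acta1, the skeletal actin of the thin filament (chromosome 8, 123891769 to 123894751), had 550 reads in the cold library and 145 in the control library, a ratio of 4.68 (3.89 to 5.66). It shared 4.45% of its words with other genes, most of them with the cytoplasmic actin Actb. The giant proteins were measured by reads that start at the 3' end of very long RNAs. Ttn, the molecular spring of the sarcomere, had 74 reads in the cold library and 15 in the control library, a ratio of 6.08 (3.46 to 11.4), and its listed transcripts were up to 106824 bases long. Neb, the ruler of the thin filament, had 22 reads in the cold library and 7 in the control library, a ratio of 3.88 (1.60 to 10.7).

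Further genes of this group encode proteins of the Z-disc or of the cell's support. Actn2, the alpha-actinin of all fibres, had 46 reads in the cold library and 10 in the control library, a ratio of 5.67 (2.82 to 12.6). Tcap, which caps titin, had 55 reads in the cold library and 17 in the control library, a ratio of 3.99 (2.28 to 7.33). Ldb3, a PDZ-LIM protein that binds alpha-actinin, had 37 reads in the cold library and 11 in the control library, a ratio of 4.15 (2.07 to 9.01). The remaining genes of this group had ratios between 1.91 and 11.1. Smpx, a small muscle protein linked to stretch, had 18 reads in the cold library and 2 in the control library, a ratio of 11.1 (2.66 to 98.6). Cmya5, a large protein at the Z-disc and costamere, had 21 reads in the cold library and 11 in the control library, a ratio of 2.35 (1.09 to 5.41). Des, the intermediate filament desmin, had 96 reads in the cold library and 62 in the control library, a ratio of 1.91 (1.37 to 2.67).

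Desmin is also made in smooth muscle, so smooth muscle markers are given beside it. All 8 smooth muscle markers were detected in at least 1 library, with 178 reads in the cold library and 162 in the control library, a ratio of sums of 1.35 (1.09 to 1.69). Single markers had 0 to 52 reads in the cold library and 1 to 51 in the control library. Acta2, smooth muscle actin, had 38 reads in the cold library and 37 in the control library, a ratio of 1.27 (0.784 to 2.05), and Actg2 had none in the cold library and 1 in the control library. Tagln was the marker at least 2-fold higher, with 41 reads in the cold library and 25 in the control library, a ratio of 2.02 (1.20 to 3.47). The part of smooth muscle cells in the Des value was not tested.

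Of the 7 calcium handling genes, 5 had at least 20 reads, and these 5 were at least 2-fold higher in the cold library, with a median log2 ratio of 2.01. Over all 7, with at least 1 read as the minimum, the median was 1.71. The minimum of 20 left out Casq1 and Sln, and Ryr1 reached it through its cold reads. Atp2a1, the fast fibre pump that returns calcium to the sarcoplasmic reticulum (chromosome 7, 126445858 to 126463108), had 285 reads in the cold library and 71 in the control library, a ratio of 4.95 (3.80 to 6.51). Pvalb, a calcium buffer of fast fibres, had 119 reads in the cold library and 36 in the control library, a ratio of 4.08 (2.79 to 6.09). Ryr1, the calcium release channel, had 17 reads in the cold library and 3 in the control library, a ratio of 6.99 (2.02 to 37.2). These 3 intervals overlap. Srl, a glycoprotein in the lumen of the reticulum, had 62 reads in the cold library and 23 in the control library, a ratio of 3.32 (2.03 to 5.62). Tmem38a, a cation channel of the reticulum, had 26 reads in the cold library and 12 in the control library, a ratio of 2.67 (1.30 to 5.81). Casq1, the calcium store protein of fast fibres, had 11 reads in the cold library and 7 in the control library, a ratio of 1.94 (0.686 to 5.90). Sln, a small inhibitor of the pump, had 3 reads in the cold library and 1 in the control library, a ratio of 3.70 (0.297 to 194). No difference was detectable for these last genes at this depth.

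The 7 metabolic genes had 615 reads in the cold library and 192 in the control library, a ratio of sums of 3.95 (3.35 to 4.67), with a median log2 ratio of 1.60. Over those with at least 100 reads it was 2.24. Here 6 were at least 2-fold higher in the cold library. Mb, the oxygen store myoglobin, had 142 reads in the cold library and 27 in the control library, a ratio of 6.49 (4.28 to 10.2). Eno3, the muscle enolase, had 61 reads in the cold library and 12 in the control library, a ratio of 6.27 (3.34 to 12.8). Ckm, muscle creatine kinase (chromosome 7, 19404776 to 19422841), had 254 reads in the cold library and 66 in the control library, a ratio of 4.75 (3.61 to 6.32). Those 3 had the highest ratios of the group. Pgam2, the muscle phosphoglycerate mutase, had 28 reads in the cold library and 11 in the control library, a ratio of 3.14 (1.51 to 6.99). The genes of glycogen use and of fructose 1,6-bisphosphate had the lowest ratios of the group. Pygm, which splits glycogen in muscle, had 41 reads in the cold library and 21 in the control library, a ratio of 2.41 (1.39 to 4.29). Fbp2, the muscle fructose bisphosphatase, had 78 reads in the cold library and 44 in the control library, a ratio of 2.19 (1.49 to 3.24). Phka1, a regulatory subunit of muscle phosphorylase kinase, had 11 reads in each library, a ratio of 1.23 (0.485 to 3.14), so no difference was detectable.

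Most of these enzymes have a relative that other tissues make, and the share of the muscle form was compared within each pair. Eno3 made up 1.56% (1.20 to 2.00) of the reads of Eno3 and Eno1 in the cold library and 0.170% (0.0878 to 0.297) in the control library. Pgam2 made up 1.92% (1.28 to 2.76) of the reads of Pgam2 and Pgam1 in the cold library and 0.761% (0.381 to 1.36) in the control library. Pygm made up 9.65% (7.01 to 12.9) of its reads with the liver form Pygl in the cold library and 2.16% (1.34 to 3.29) in the control library. In each of these pairs the muscle form had the larger share in the cold library, with an interval of the difference above 0. Creatine kinase went the other way. Ckm made up 18.9% (16.9 to 21.1) of the reads of Ckm and the brain-type Ckb in the cold library and 57.4% (47.8 to 66.6) in the control library, where Ckb had 1089 reads in the cold library and 49 in the control library. For Phka1 with Phka2, Fbp2 with Fbp1 and Tmem38a with Tmem38b the interval of the difference included 0.

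The 4 genes of growth, stretch and turnover had 128 reads in the cold library and 16 in the control library, a ratio of sums of 9.87 (5.85 to 17.8), with a median log2 ratio of 3.43. That median was 2.40 with a prior of 5 reads, 2.65 from the most abundant transcripts and 2.89 from protein coding transcripts. All 4 were at least 2-fold higher in the cold library. With 1 to 7 control reads each, they too reached the minimum of 20 reads through their cold reads. These calls thus partly follow from that minimum. Trim63, the ubiquitin ligase MuRF1 that marks sarcomere proteins for breakdown (chromosome 4, 134315120 to 134329629), had 27 reads in the cold library and 1 in the control library, a ratio of 33.3 (5.49 to 1363). Ankrd2, an ankyrin repeat protein that responds to stretch, had 32 reads in the cold library and 2 in the control library, a ratio of 19.7 (5.03 to 170). Csrp3, the muscle LIM protein, had 39 reads in the cold library and 6 in the control library, a ratio of 8.02 (3.37 to 23.2). Counts of 1 and 2 in the control library make the intervals of the Trim63 and Ankrd2 ratios wide. Eef1a2, the translation elongation factor form of muscle and nerve, had 30 reads in the cold library and 7 in the control library, a ratio of 5.28 (2.27 to 14.3). Its share with the general form Eef1a1 was 1.56% (1.05 to 2.22) in the cold library and 0.260% (0.104 to 0.534) in the control library.

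Each gene was also set against the sum of the other 44, as the ratio of its cold over control ratio to theirs, which does not depend on scaling. For 35 of the 45 this interval included 1, it lay above 1 for 6 and below 1 for 4, with no adjustment for the 45 comparisons. Above were Trim63 (8.49, 1.40 to 348), Ankrd2 (5.03, 1.28 to 43.4), Myh7 (4.41, 1.41 to 22.3), Myl2 (2.41, 1.02 to 6.93), Mb (1.67, 1.09 to 2.64) and Tnni2 (1.54, 1.07 to 2.26). Among them are the slow myosin genes Myh7 and Myl2, and no calcium handling gene. Below were Phka1 (0.310, 0.122 to 0.791), Myl1 (0.334, 0.265 to 0.423), Des (0.469, 0.335 to 0.662) and Fbp2 (0.543, 0.368 to 0.811). Some of the 35 had few control reads and wide intervals, as Tnnc1 (3.14, 0.974 to 16.1) and Sln (0.937, 0.0751 to 49.2). For such genes, an interval that includes 1 does not show a ratio shared with the others.

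Transcript forms could be compared for 18 genes, which had several listed transcripts and whose reads reached 10 in the cold and in the control library alike. Of their 62 transcripts, 4 differed in their share of the gene's reads with an interval that excluded 0 (6.45%), against 4.53% of the 18605 transcripts of all genes chosen alike. The 4 belong to 2 genes, Myl1 and Eno3, which is 11.1% of the 18 genes, against 11.2% of all such genes. The listed genes were thus near the background in this measure, the intervals are not adjusted for the number of transcripts, and the shares of both genes are given as a description. Myl1 is known to make a long and a short light chain from separate first exons. Myl1-201, whose first exon starts at 66945143 on the minus strand, had 106 reads in the cold library and 115 in the control library. It took 58.2% of Myl1 reads (50.7 to 65.5) in the cold library and 74.7% (67.0 to 81.3) in the control library, a difference of -16.4 points (-26.0 to -6.29). Myl1-202, which starts at 66935354, had 57 reads in the cold library and 24 in the control library. Its share was 31.3% (24.7 to 38.6) in the cold library and 15.6% (10.2 to 22.3) in the control library, a difference of 15.7 points (6.65 to 24.3). Taken alone, Myl1-201 had a ratio of 1.14 (0.865 to 1.49) and Myl1-202 one of 2.93 (1.79 to 4.93). Myl1-207, which starts at 66935637, had 19 reads in the cold library and 14 in the control library.

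The forms of Eno3 differ at the start of their second exon, ahead of the start codon. That exon begins at 70657872 on chromosome 11 in Eno3-201 and has 87 bases, and it begins at 70657760 in Eno3-202 and has 199. Eno3-201 had 14 reads in the cold library and 9 in the control library, and Eno3-202 had 44 in the cold library and 3 in the control library. The share of Eno3-202 was 72.1% (59.2 to 82.9) in the cold library and 25.0% (5.49 to 57.2) in the control library, a difference of 47.1 points (16.3 to 65.9). The control share rests on 12 reads of the gene. Since reads begin at the 3' end and may stop before these exons, the assignment to a form depends on how the authors' counting treated short reads, which is not given in the sources used here.

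**Figure D4:**
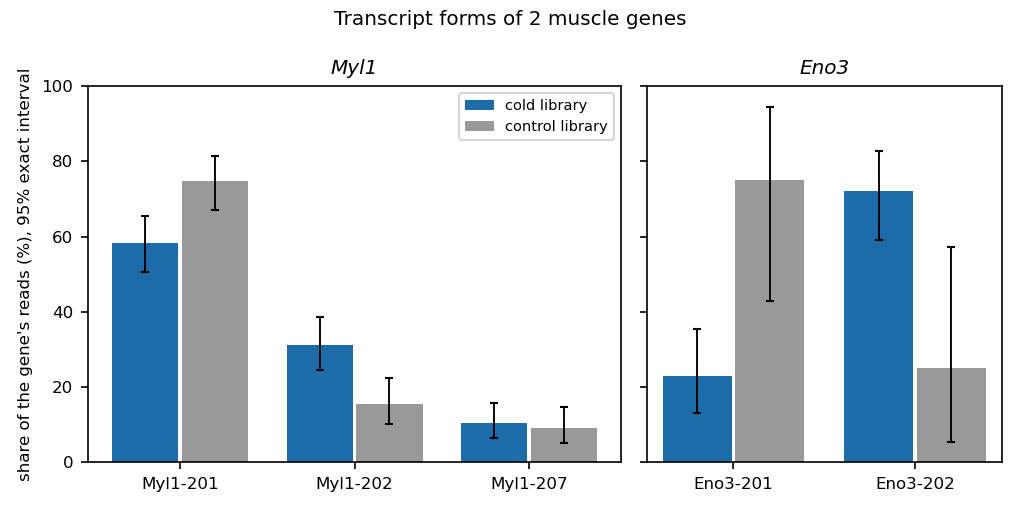
Share of the reads of Myl1 and of Eno3 listed under each transcript, in the cold library (left bar) and the control library (right bar), with exact 95% intervals. Myl1-202 and Eno3-202 had larger shares in the cold library, at 31.3% against 15.6% and 72.1% against 25.0%.

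A further list of 67 genes, written with earlier results known, held other skeletal muscle genes and relatives of the listed ones that other tissues make. Of the 20 with at least 20 reads, 8 were at least 2-fold higher in the cold library and 1 was lower. Over all genes with at least 20 reads, 4.20% were higher and 4.08% were lower. The 54 muscle genes of this list, split off after the values were seen, had 11 members with enough reads, and 7 of these were higher and none lower. Their median log2 ratio was 1.33. The other muscle genes of this list had too few reads for a call, and their scaled reads differed in both directions. Those lower in the cold library all had intervals that included 1. Where an interval of these genes left out 1, it lay above 1. Of the 20 genes with enough reads, the highest ratios were those of Ckb at 27.4 (20.6 to 37.3), Hspb7, a small heat shock protein of muscle, at 21.8 (7.06 to 109), Cox6a2, the muscle form of a cytochrome c oxidase subunit, at 18.9 (6.08 to 95.04), and Myot, a Z-disc protein, at 4.93 (2.11 to 13.4). Hspb7 had 53 reads in the cold library and 3 in the control library, and Cox6a2 had 46 in the cold library and 3 in the control library. The lowest of the 20 were Pygl at 0.498 (0.442 to 0.562), Phka2 at 0.552 (0.292 to 1.00), Eno1 at 0.672 (0.646 to 0.699) and Pygb at 0.776 (0.490 to 1.21), all of them relatives of muscle enzymes. Myom2, an M-band protein, had 13 reads in the cold library and none in the control library, and the interval of its ratio began at 3.76.

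Heart and developing muscle genes were near 0. Of 8 heart muscle genes, Tnni3, Tnnt2, Myh6, Myl7, Nppa and Nppb had no reads in either library. Myl4, on both lists, had 3 reads in the cold library and 8 in the control library, and Actc1 had 1 read in the cold library and none in the control library. The embryonic and perinatal myosins Myh3 and Myh8 and the fetal receptor subunit Chrng had no reads in either library. A count of 0 allows up to 3 reads in a library. Regulators of muscle formation were sparse as well. Myod1, Myf5, Pax7, Pax3 and Cdh15 had no reads in either library. Myf6, the regulator of mature fibres, had 5 reads in the cold library and none in the control library, and the interval of its ratio began at 1.13. Vgll2 had 7 reads in the cold library and none in the control library, and the interval of its ratio began at 1.78. Mef2d, which other cells also make, had 109 reads in the cold library and 104 in the control library, a ratio of 1.29 (0.979 to 1.71).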

How the data were processed

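The authors deposited raw counts of reads, as whole numbers, for each Ensembl transcript with at least 1 read. Per the labels' protocols, RNA was poly(A)-selected on oligo(dT) beads and 500 ng went into direct RNA libraries. The submitters' processing notes name minimap2 and GRCm38. The version, the annotation release and the counting of reads that match several transcripts have no statement in the sources used here. Transcripts were matched by identifier without version to GENCODE mouse M21 (GRCm38) and summed to genes. Transcripts without a gene (0.0652% of reads in the cold library, 0.0571% in the control library) stayed in the library size.

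Effective library sizes came from edgeR 4.0.16 TMM factors (1.06 for cold, 0.940 for control). Ratios carry exact Clopper-Pearson intervals of the cold share, log2 ratios a prior of 0.5 reads. Differences of shares carry Newcombe intervals, and ratios of ratios exact conditional intervals. Calls needed at least 20 summed reads, 2-fold and an interval without 1. The calculation was tested on simulated data. Alternatives were total counts with and without mitochondrial genes, DESeq2 1.42.0 size factors, other read minimums, folds and priors, and single transcripts. All 45 listed genes are named, and of further lists those with the 4 highest and 4 lowest ratios or those detected. The genes and lists were chosen with earlier results of these data known. Myom2 was named after its values were seen. Words of 31 bases were compared over M21 transcripts.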

Additional observations from a re-analysis of the deposited data

How the results depend on the processing

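No paired analysis was possible because each condition has 1 library. The 40 listed genes called higher became 34 to 41 under other scalings, folds, priors, transcript choices and with at least 1 read. They were 34 of 36 tested from the most abundant transcripts, 38 of 41 from protein coding transcripts and 40 of 45 with at least 1 read. At folds of 1.5 and 3 they were 41 and 35 of 43. With at least 100 reads they were 11 of 13, and no slow gene was left. The share of all genes called higher was 1.86% at a fold of 3 and 8.07% at a fold of 1.5. With total counts it was 6.94%, and with at least 100 reads 3.5%. None was lower under any of these. Total counts moved the median of all genes by 0.18 on the log2 scale (0.13 without mitochondrial genes), and Des then passed 2-fold with a log2 ratio of 1.11 (1.06). No called gene changed direction. Phka1, not called, had a log2 ratio of -0.10 from its most abundant transcript. From that transcript alone Eno3 was at 3.95 in place of 2.59 and Myl1 at 0.18 in place of 0.54. The difference in the fast share was -8.20 points per kilobase and -10.6 from the most abundant transcripts. Without mitochondrially encoded reads the listed genes took 0.407% of the cold library and 0.0941% of the control library. The slow, growth and stretch genes rest on 1 to 8 control reads each, which limits the precision of their ratios.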

Other observations

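Nearly all reads of the listed genes were under transcripts annotated as protein coding, 98.9% in the cold library and 99.4% in the control library. Transcripts with a retained intron had 16 reads in the cold library and 6 in the control library. Processed transcripts without a coding frame had 11 reads in the cold library and none in the control library, and transcripts marked for nonsense-mediated decay had 10 in the cold library and 1 in the control library.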
